A study of Mus musculus with 20 samples.

Results

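Iroquois genes encode homeodomain transcription factors, and the members examined here were *Irx3*, *Irx4* and *Irx5*. They were taken as all probes that the array's annotation assigned to these genes, which gave 1 probe each (ILMN_2776909 for *Irx3*, ILMN_2739872 for *Irx4* and ILMN_2650603 for *Irx5*), or 3 of the 23978 probes that carried 1 gene. RNA was hybridised to Illumina MouseRef-8 v2 bead arrays, with 4 arrays for each of 5 regions of the heart. The regions were a piece of the left ventricle (LV), the right ventricle (RV, its free wall), the sinoatrial node (SA), where the heartbeat starts, the left atrium (LA) and the right atrium (RA). All mice were males of the strain C57/BL6, 5 to 10 weeks old, without any treatment named in the labels, the LV mass was cut into several pieces, and RNA for an SA sample came from several mice. V stands for LV and RV together and atria for LA and RA together. Titles share numbers between LV and RV and between LA and RA, but nothing in the labels says whether a number marks an animal, so the errors and p-values given cover only the spread among the samples, which may be technical. The question asked of these members is how their RNA is distributed over ventricles, node and atria.

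Iroquois genes lie in the mouse genome in a pair of clusters, each with its own members. In the developing and adult mouse heart, *Irx4* is known as a factor of ventricular muscle that helps to keep ventricular and atrial gene programmes apart, a role first shown in chick. *Irx3* is known in mice for the conduction system of the ventricles, where it acts on connexin genes, and *Irx5* for the gradient of the potassium channel gene *Kcnd2* across the ventricular wall. In the GRCm38.p6 annotation, *Irx3* lies at chr8:91798511-91801654 and *Irx5* at chr8:92357796-92361456, in one cluster with *Irx6*. *Irx4* lies at chr13:73259589-73269622, in the other cluster with *Irx1* and *Irx2*. Each is a protein-coding gene.

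Both clusters held members that were higher in ventricles than elsewhere, and promoters are shown for 1 member of each. *Irx5* is not shown, since the set of mouse promoters used held no entry for it. The stretches below are the 250 bases before 1 RefSeq transcript start of each gene (GRCm38.p6), written 5′ to 3′ on the gene's strand, with CG pairs in capitals. *Irx3* (chr8:91801655-91801904, minus strand) and *Irx4* (chr13:73260247-73260496, plus strand) read as follows. The start used for *Irx3* is the end of the gene span given above, whereas that used for *Irx4*, at position 73260497, lies 908 bases inside its span, so the *Irx4* stretch is also inside the span and does not precede its first base.
Irx3: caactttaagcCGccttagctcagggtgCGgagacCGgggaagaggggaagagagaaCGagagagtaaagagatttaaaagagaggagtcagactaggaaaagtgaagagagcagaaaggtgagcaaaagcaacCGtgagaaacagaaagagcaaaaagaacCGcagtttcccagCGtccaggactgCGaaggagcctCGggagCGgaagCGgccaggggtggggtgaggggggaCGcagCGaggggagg
Irx4: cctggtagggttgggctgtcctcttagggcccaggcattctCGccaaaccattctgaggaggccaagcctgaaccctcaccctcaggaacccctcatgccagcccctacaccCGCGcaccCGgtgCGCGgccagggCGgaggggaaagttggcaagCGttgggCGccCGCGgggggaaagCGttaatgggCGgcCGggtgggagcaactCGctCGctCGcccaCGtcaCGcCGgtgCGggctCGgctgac
The *Irx3* stretch held 13 CG pairs at 56% G and C, and 31.5% of 32851 mouse promoters of the same length held at least as many. The *Irx4* stretch held 22 CG pairs at 68.8% G and C, a number that 14.8% of promoters reached. Both were searched on both strands for the motifs of GATA factors (AGATAA), of TEAD factors (CATTCC) and of Nkx2-5 (TNAAGTG). Also searched for were the motifs of Iroquois factors (ACANNTGT), of T-box factors (GGTGTNA) and of helix-loop-helix factors (CANNTG, which overlaps the Iroquois motif). For all of these motifs, 0 matches were found in either stretch. These motifs occurred in 9.99%, 12.6%, 10.1%, 6.31%, 8.61% and 66.2% of all promoters in that order.

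The deposited values are z-scores: on every array the probes average 0 with an SD of 1. Differences between regions are therefore in z-score units, and folds were not computed. The arrays were alike except in LV. Over all probes, 18 arrays correlated with each other at a Spearman coefficient of 0.921 to 0.962. As a mean over the other 19 arrays, LV replicate 4 had -0.0391, LV replicate 3 had 0.82 and the 18 arrays had 0.880 to 0.890. For all but LV replicate 4, this mean is lowered by the correlation with LV replicate 4. The study used 2 LV arrays without naming them. The main results are therefore given for all 20 arrays and for the 18 arrays without LV replicates 3 and 4. The title of RV replicate 2 names another region than its source, tissue and description labels, and it was kept in RV as these say. Marker genes followed the labels: without LV replicate 4, the mean of 5 ventricular muscle genes was 2.28 to 2.73 in V arrays, 0.574 to 0.626 in SA arrays, 0.458 to 0.884 in LA arrays and 0.576 to 0.932 in RA arrays. LV replicate 4 had 3.47. The mean of 5 atrial muscle genes was 3.54 to 4.41 in SA, LA and RA arrays, and V arrays were lower but uneven. It was 2.30 in LV replicate 1, 1.95 in RV replicate 2 and 1.50 in RV replicate 3, against 0.07 to 0.806 in the other 5 V arrays. Without these 3 arrays and LV replicates 3 and 4, V minus atria was 1.68 for *Irx3*, 1.32 for *Irx4* and 0.90 for *Irx5*. The mean of 3 node genes was 1.3 to 1.43 in SA arrays and at most 0.3 in any other array. In tissue samples such as these, fewer cells of a type and less RNA per cell cannot be told apart.

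*Irx3* was high in both ventricles, lower in RA, lower again in LA and lowest in SA. Its z-scores were 2.08, 2.50, 2.22 and -0.11 in the LV arrays (replicates 1 to 4). They were 2.30, 2.71, 2.24 and 2.12 in the RV arrays. LV replicate 4 was thus the exception among ventricular arrays, and the other 7 lay above every array of SA and atria. SA arrays gave -0.23, 0.00, -0.31 and -0.32. LA arrays gave 0.40, 0.43, 0.44 and 0.28, and RA arrays 0.92, 0.94, 1.03 and 0.95. SA, LA and RA formed 3 separate ranges, with no array of one inside another. The means were 1.67 ± 1.20 in LV (2.27 ± 0.21 without replicate 4, n = 3), 2.34 ± 0.26 in RV, -0.22 ± 0.15 in SA, 0.39 ± 0.07 in LA and 0.96 ± 0.05 in RA (SD, n = 4).

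*Irx4* divided the heart into ventricles and the rest. The LV arrays gave 0.48, 0.74, 0.31 and -0.56, and the RV arrays 0.34, 0.53, 0.37 and 0.36. SA arrays gave -0.73, -0.79, -0.84 and -0.68. By z-score every ventricular array lay above every other array. LA arrays gave -0.80, -0.76, -0.80 and -0.74, and RA arrays -0.75, -0.78, -0.80 and -0.81, so that the ranges of SA, LA and RA overlapped. The means were 0.24 ± 0.56 in LV (0.51 ± 0.22 without replicate 4, n = 3), 0.40 ± 0.09 in RV, -0.76 ± 0.07 in SA, -0.78 ± 0.03 in LA and -0.79 ± 0.03 in RA (SD, n = 4). In V arrays without LV replicate 4 the probe stood at the 72.5 to 79.5 percentile of all probes, against the 1.86 to 34.1 percentile in SA arrays and the 9.07 to 22.9 percentile in atrial arrays. LV replicate 4 stood at the 23.5 percentile, inside the SA range, so its place above the other arrays holds for the z-score and not for the rank. Whether it was above background outside the ventricles was not tested, since no detection p-values were used.

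*Irx5* had 3 levels, with ventricles above both atria and atria above SA. Its z-scores were 0.76, 1.12, 1.07 and -0.56 in LV and 0.61, 1.06, 0.53 and 0.60 in RV. SA arrays gave -0.81, -0.63, -0.60 and -0.67. LV replicate 4 fell near the SA arrays, and the other 7 ventricular arrays lay above all arrays of SA and atria. LA arrays gave 0.13, -0.16, -0.04 and -0.13, and RA arrays -0.07, -0.04, 0.09 and -0.10. LA and RA overlapped, and both lay wholly above SA. The means were 0.60 ± 0.79 in LV (0.98 ± 0.20 without replicate 4, n = 3), 0.70 ± 0.24 in RV, -0.68 ± 0.09 in SA, -0.05 ± 0.13 in LA and -0.03 ± 0.08 in RA (SD, n = 4).

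**Figure D1:**
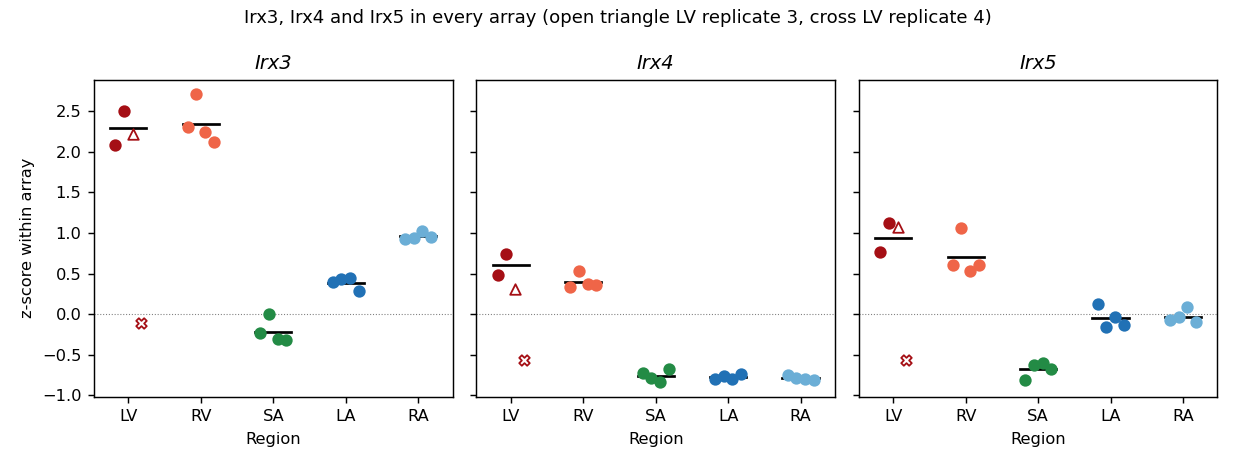
Z-score of the *Irx3*, *Irx4* and *Irx5* probes (y axis, within-array z-score) in every array by region (x axis); points are arrays, the open triangle is LV replicate 3, the cross is LV replicate 4, and lines are region means over the other arrays. The 7 ventricular arrays other than LV replicate 4 lie above all SA, LA and RA arrays in each panel, and only *Irx3* separates LA (0.28 to 0.44) from RA (0.92 to 1.03).

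Ventricles were compared with atria first. In limma fits with a mean for each region, adjusted by the Benjamini-Hochberg method over all 23978 probes, all 3 members were higher in V, where 9.64% of probes were called in either direction and 2.7% as higher in V. *Irx3* was higher by 1.33 ± 0.26 (SE; adjusted p = 0.00281), *Irx4* by 1.10 ± 0.12 (adjusted p = 9.92e-06) and *Irx5* by 0.69 ± 0.18 (adjusted p = 0.0207). On the 18 arrays, where 33.7% of probes were called and 17.8% as higher, the differences were 1.64 ± 0.08 for *Irx3* (limma adjusted p = 4.56e-11), 1.28 ± 0.04 for *Irx4* (adjusted p = 8.48e-14) and 0.86 ± 0.08 for *Irx5* (adjusted p = 1.15e-07). The background was thus high without LV replicates 3 and 4, and a call alone sets a probe apart less there. For *Irx4* the z-scores of the 8 V arrays did not overlap with the 8 atrial arrays, which held for 1.99% of probes, and without LV replicate 4 this held for all 3 members against 5.55% of probes. The same 7 V arrays lay above all SA and atrial arrays for each member, which held for 3.75% of probes. An exact two-sided permutation test over V and atrial arrays gave p = 0.00171 for *Irx3*, p = 0.000155 for *Irx4* and p = 0.00513 for *Irx5*, of which 0.000155 is the smallest the 12870 regroupings allow. This test and the later exact tests treat the arrays as independent, which the labels do not settle. If LV and RV or LA and RA arrays share animals, fewer independent units stand behind these p-values.

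Against SA, the ventricles were higher for all 3 members too. In the fit to 20 arrays 6.06% of probes were called and 1.26% as higher in V. *Irx3* was higher in V by 2.22 ± 0.32 (limma adjusted p = 0.000203), *Irx5* by 1.33 ± 0.22 (adjusted p = 0.000799) and *Irx4* by 1.08 ± 0.15 (adjusted p = 0.000141). For *Irx3* and *Irx5* this difference was larger in value than that between V and atria, and for *Irx4* the values were close. On the 18 arrays (28.8% called, 14.8% as higher) the differences were 2.53 ± 0.10 for *Irx3*, 1.26 ± 0.05 for *Irx4* and 1.50 ± 0.09 for *Irx5* (limma adjusted p = 1.96e-12, 1.8e-12 and 1.14e-09). Exact two-sided permutation over V and SA arrays gave p = 0.00404, 0.00202 and 0.00202 for *Irx3*, *Irx4* and *Irx5*, and 0.00202 is the smallest possible with 8 and 4 arrays. For *Irx5*, LV replicate 4 at -0.56 lay just above the highest SA array at -0.60. By rank it stood at the 23.5 percentile, inside the SA range of 16.7 to 41.4. As for *Irx4*, the separation of V from SA thus holds for the z-score and not for the rank. The limma F over all 5 regions gave adjusted p = 0.000943 for *Irx3*, 7.26e-05 for *Irx4* and 0.00726 for *Irx5*, where 7.63% of probes passed (34.7% on the 18 arrays).

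On each side of the heart, the ventricle was compared with its own atrium. *Irx4* was higher in LV than in LA by 1.02 ± 0.18 (limma adjusted p = 0.00149, 7.57% of probes called and 2% as higher) and higher in RV than in RA by 1.19 ± 0.18 (adjusted p = 0.000419, 3.67% called and 0.884% as higher). *Irx3* passed narrowly on both sides with 20 arrays, by 1.29 ± 0.37 in LV over LA (limma adjusted p = 0.0449) and by 1.38 ± 0.37 in RV over RA (adjusted p = 0.0494). Leaving out any 1 array other than LV replicate 4 ended the LV call (limma adjusted p = 0.0539 to 0.11), leaving out any 1 array other than LV replicates 2, 3 and 4 ended the RV call (0.0529 to 0.16), and aligning the medians ended both. *Irx5* did not pass on either side, at 0.65 ± 0.25 for LV minus LA (limma adjusted p = 0.11) and 0.73 ± 0.25 for RV minus RA (adjusted p = 0.182). On the 18 arrays all 3 members passed on both sides. For LV minus LA (20.2% of probes called, 9.79% as higher) *Irx3* differed by 1.90 ± 0.13, *Irx4* by 1.38 ± 0.06 and *Irx5* by 0.99 ± 0.12 (limma adjusted p = 8.08e-09, 5.21e-11 and 1.25e-05). For RV minus RA (25.6% called, 12.3% as higher) they differed by 1.38 ± 0.11, 1.19 ± 0.05 and 0.73 ± 0.10 (limma adjusted p = 1.46e-08, 1.12e-11 and 2.16e-05). In RV against RA no array overlapped for any member, and RV arrays lay wholly above RA arrays for 14.7% of probes. Exact two-sided permutation gave the smallest possible p of 0.0286 with 4 and 4 arrays for each.

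LV and RV were not shown to differ for any member on 20 or 18 arrays. On the 18 arrays LV minus RV was -0.05 for *Irx3* (95% interval -0.33 to 0.22), 0.21 for *Irx4* (0.08 to 0.34) and 0.24 for *Irx5* (-0.02 to 0.50), where intervals are not adjusted for the number of probes. The limma adjusted p-values were 0.949, 0.145 and 0.489, and 0.955% of probes were called. With 20 arrays the differences were -0.67, -0.16 and -0.10 (limma adjusted p = 0.271, 0.477 and 0.754, with 0.00834% of probes called). The sign for *Irx4* and *Irx5* turned on LV replicate 4: without that array alone the differences were 0.11 and 0.28. Taken within the 3 pairs of equal title number that leave out LV replicate 4, LV minus RV was -0.22 to -0.02 for *Irx3*, -0.06 to 0.21 for *Irx4* and 0.06 to 0.54 for *Irx5*, and a paired fit called none of them (limma adjusted p = 0.36, 0.56 and 0.349). The ventricle-atrium difference on the left minus that on the right was 0.52 for *Irx3*, 0.20 for *Irx4* and 0.26 for *Irx5* on the 18 arrays (limma adjusted p = 0.127, 0.269 and 0.539, with 2.41% of probes called), against -0.10, -0.17 and -0.08 on 20 arrays (adjusted p = 0.905, 0.654 and 0.88, with 0.2% called).

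**Figure D2:**
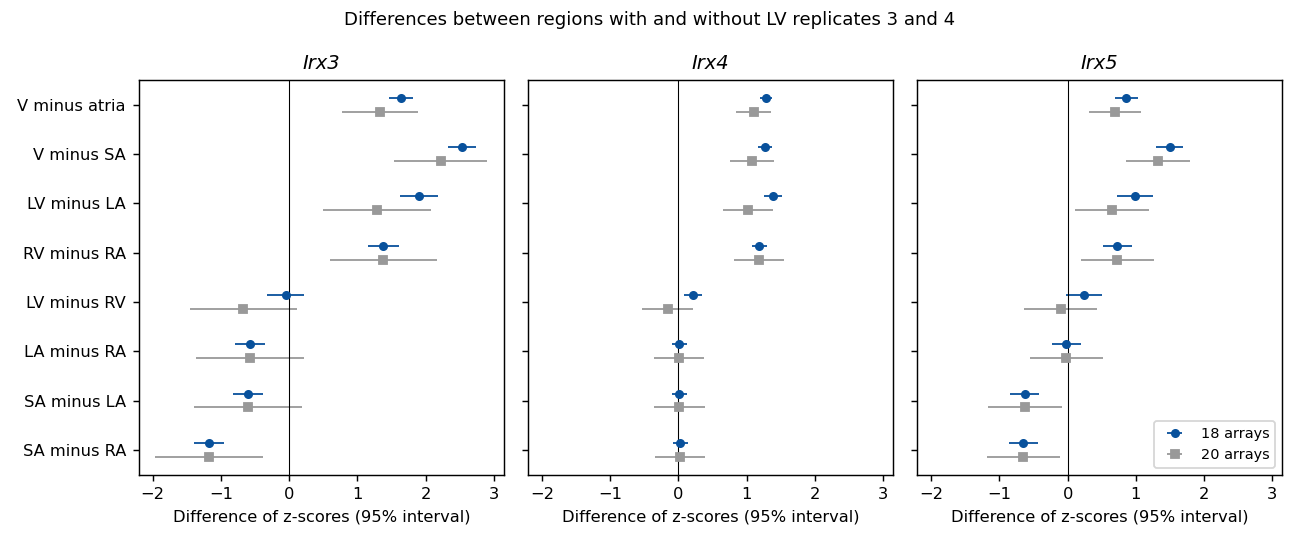
Differences between regions (x axis, z-score units) for *Irx3*, *Irx4* and *Irx5*, with 95% intervals from limma; circles are the fit to 18 arrays without LV replicates 3 and 4, squares the fit to all 20 arrays. Intervals of V minus atria and V minus SA lie above 0 in both fits for each gene, and in the fit to 18 arrays all 3 intervals among SA, LA and RA include 0 for *Irx4* only.

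Outside the ventricles the members parted ways. For *Irx3*, SA was lower than LA by 0.60 ± 0.11 and lower than RA by 1.18 ± 0.11 on the 18 arrays, and LA was lower than RA by 0.57 ± 0.11 (SE; limma adjusted p = 0.000824, 4.81e-07 and 0.0046). For *Irx5*, SA was lower than LA by 0.63 ± 0.10 and lower than RA by 0.65 ± 0.10 (limma adjusted p = 0.000356 and 0.000253). These calls stood against 11.4% of probes called for SA minus LA (5.77% as lower), 10.5% for SA minus RA (5.51% as lower) and 2.26% for LA minus RA (1.25% as lower). None of them passed with 20 arrays, where LV replicate 4 enters the shared spread. There the limma adjusted p was 1, 0.225 and 1 for *Irx3* in the same order and 0.557 and 0.533 for *Irx5*, and 1.44% of probes were called for SA minus LA (0.555% as lower), 1.46% for SA minus RA (0.617%) and 0.313% for LA minus RA (0.192%). LV arrays enter these 5 comparisons only through the spread, and in each of them the arrays of the regions compared did not overlap, with an exact two-sided permutation p of 0.0286, the smallest that 4 and 4 arrays allow (24 such tests were run over all members and pairs of groups). Arrays of LA lay wholly above SA for 6.28% of probes, RA above SA for 6.92%, both atria above SA for 3.31% and RA above LA for 3.04%.

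For *Irx4* the corresponding differences were close to 0. On the 18 arrays SA minus LA was 0.02 (95% interval -0.095 to 0.125), SA minus RA 0.02 (-0.085 to 0.135) and LA minus RA 0.01 (-0.10 to 0.12), with limma adjusted p = 0.912, 0.864 and 0.975. For *Irx5*, LA minus RA was -0.02 (-0.23 to 0.19, adjusted p = 0.974). These intervals leave room for differences up to their bounds. The *Irx4* probe was low in all these regions, at the 1.86 to 34.1 percentile in SA and the 9.07 to 22.9 percentile in atria. Whether it was above background there was not tested, so differences in *Irx4* RNA among SA, LA and RA may not have shown.

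Other tissue components also differed between SA and atria, and their values stand here beside the lower *Irx3* and *Irx5* of SA. On the 18 arrays 5% of all probes were called higher in SA than in RA and 5.51% lower. Of adipocyte genes, 5 of 6 were higher in SA than in RA, with list means of 0.592 to 0.952 in SA arrays against -0.603 to -0.317 in RA arrays. All 4 smooth muscle genes were higher (1.28 to 1.88 in SA arrays, 0.415 to 0.645 in RA arrays). Both lists thus stood higher in every SA array than in any RA array. Of 5 lung and airway genes, 1 was higher in SA, the airway gene *Scgb1a1*, at -0.49, 3.97, 0.93 and 0.72 in SA arrays against -0.85 to -0.63 in RA arrays. SA replicate 2 was thus highest for it, and without that array SA minus RA was -1.25 for *Irx3* and -0.66 for *Irx5*. Of endothelial genes, 3 of 6 were lower in SA (0.597 to 0.658 in SA arrays, 0.81 to 0.942 in RA arrays), and 2 of 4 neuronal genes were higher (-0.065 to 0.565 in SA arrays, -0.26 to 0.07 in RA arrays). Of the 9 core cardiac transcription factors described below, 3 were lower in SA than in RA and 0 higher: *Nkx2-5* by 0.55, *Mef2c* by 0.49 and *Tbx20* by 0.73. Of the 7 conduction-linked genes described below, 3 were lower in SA than in RA, *Gja5*, *Etv1* and *Id2* by 0.75, 1.02 and 0.43, and *Cacna1g* was higher by 0.48. The 5 atrial muscle genes lay within 0.33 of the brightest probe of each SA and RA array, so at the top of the scale they could not show whether atrial muscle differed. Against LA (5.6% of probes called higher), 5 of 6 adipocyte genes, 4 of 4 smooth muscle genes and 4 of 4 neuronal genes were higher in SA, and 3 of 6 endothelial genes lower. Between V and atria, 3 of 5 fibroblast genes were lower in V and 3 of 4 smooth muscle genes higher, beside 15.8% of all probes called lower and 17.8% higher. The part of any of these components in the Iroquois differences was not tested.

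The remaining Iroquois genes are *Irx1* and *Irx2*, in the cluster of *Irx4*, and *Irx6*, in that of *Irx3* and *Irx5*. *Irx2* followed the ventricles through 1 of its 2 probes. The probe ILMN_3115213 gave -0.03, 0.29, 0.00 and -0.04 in LV and 0.32, 0.75, 0.27 and 0.12 in RV. It gave -0.57, -0.19, -0.54 and -0.68 in SA, -0.78, -0.73, -0.69 and -0.76 in LA, and -0.65, -0.73, -0.81 and -0.78 in RA. All 8 ventricular arrays lay above all SA and atrial arrays, LV replicate 4 among them. V exceeded atria by 0.95 ± 0.08 on 20 arrays (limma adjusted p = 6.1e-07) and by 0.99 ± 0.09 on 18 arrays (adjusted p = 7.58e-08). The second *Irx2* probe, ILMN_3040515, disagreed in size: it lay between -0.80 and -0.52 in every array but LV replicate 4 (0.84), and V exceeded atria by 0.10 ± 0.03 on 18 arrays (adjusted p = 0.0134). *Irx1* was higher in V by 0.18 ± 0.04 on both sets of arrays (limma adjusted p = 0.0022 on 20 and 0.000656 on 18), within a low range of -0.85 to -0.51. *Irx6* was not called, at 0.21 ± 0.12 on 20 arrays (limma adjusted p = 0.254) and 0.03 ± 0.03 on 18 arrays (adjusted p = 0.423). Higher values in V were thus called for members of both clusters.

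**Figure D3:**
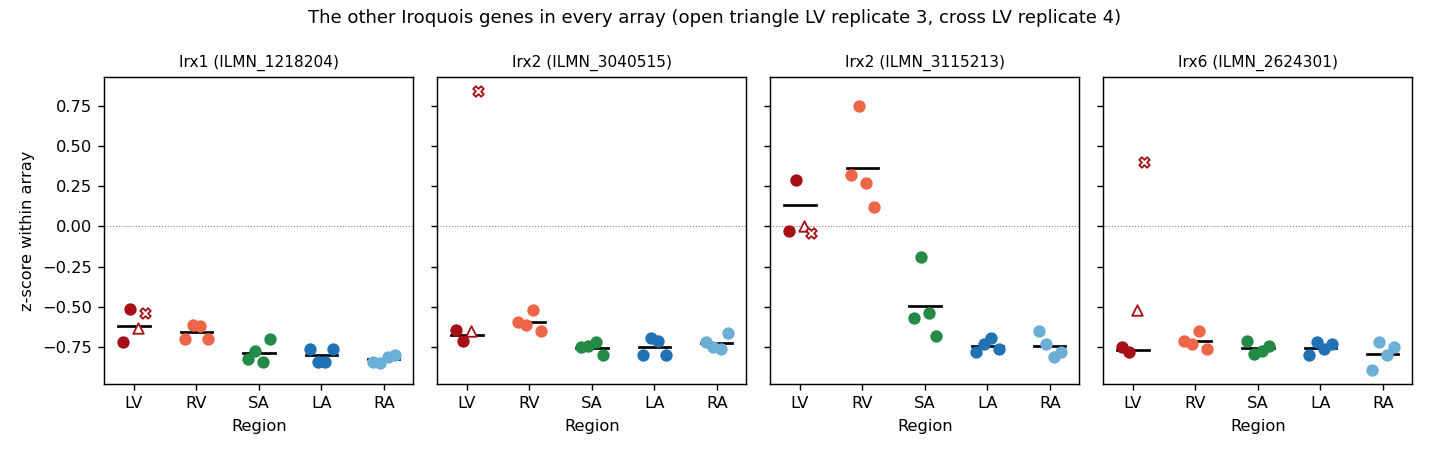
Z-scores of the probes of *Irx1*, *Irx2* (2 probes) and *Irx6* in every array by region (y axis, within-array z-score; x axis, region); the open triangle is LV replicate 3, the cross is LV replicate 4, and lines are region means over the other arrays. The *Irx2* probe ILMN_3115213 separates ventricles from the rest, while ILMN_3040515 and *Irx6* stand out only in LV replicate 4 (0.84 and 0.40).

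Genes on either side of the clusters were called in both directions. The 2 nearest genes with a probe on each side of each cluster were taken, 8 in all. These were *Rpgrip1l*, *Fto*, *Mmp2* and *Lpcat2* for the cluster of *Irx3* and *Irx5*, and *Med10*, *Adamts16*, *Ndufs6* and *Mrpl36* for that of *Irx4*. They lay 50.3 to 485 kilobases from their cluster, except *Adamts16* at 1116 and *Med10* at 2142 kilobases. Of these 8 genes, 0 were called between V and atria on 20 arrays. On 18 arrays 2 were higher in V, *Ndufs6* by 0.60 and *Mrpl36* by 0.33, which both encode mitochondrial proteins, and 2 were lower, *Mmp2* by 0.35 and *Med10* by 0.28. Their median difference was 0.02, beside 0.03 over all probes, of which 17.8% were called higher and 15.8% lower.

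Of 9 core cardiac transcription factors, 3 were higher and 4 lower in V than in atria on the 18 arrays. *Hey2*, a Notch target that represses atrial genes in ventricular muscle, was higher by 0.37 ± 0.04 (limma adjusted p = 3.95e-07), and *Hand2* and *Gata4* were higher by 0.33 and 0.20. *Tbx5*, which is needed for atrial and conduction gene programmes, differed by -1.002 ± 0.066 (limma adjusted p = 1.09e-09), and *Tbx20*, *Gata6* and *Mef2c* differed by -0.36, -0.25 and -0.22. *Nkx2-5* (-0.02) and *Hand1* (0.07) were not called. The median of the list was -0.02 against 0.03 over all probes. With 20 arrays 1 was higher (*Hey2*) and 2 lower (*Tbx5* and *Tbx20*). Over all probes 17.8% were called higher and 15.8% lower on the 18 arrays, and 2.7% and 6.94% on 20.

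Of 12 measured genes that Iroquois factors are reported to regulate or to work with, 6 were higher and 4 lower in V than in atria on the 18 arrays, with a median of 0.23 against 0.03 over all probes. With 20 arrays 2 were higher (*Kcnip2* and *Rxra*) and 3 lower (*Gja5*, *Bmp10* and *Vdr*). The shares over all probes were those given for the core factors. The potassium current genes *Kcnd2*, a channel subunit that *Irx5* represses in mice, and *Kcnip2*, its accessory subunit, were both higher in V on the 18 arrays, by 0.31 ± 0.06 and 1.13 ± 0.06 (limma adjusted p = 0.000301 and 4.03e-11). *Kcnd2* gave 0.23, 0.30, 0.44 and -0.42 in LV against 0.77, 0.90, 0.81 and 0.60 in RV. RV arrays were thus all above LV arrays for this gene, which was not so for any member, and LV minus RV was -0.51 on the 18 arrays (adjusted p = 0.0125) and -0.63 on 20 (adjusted p = 0.2). In the atria *Kcnd2* gave 0.23, 0.34, 0.19 and 0.35 in LA and 0.12, 0.19, -0.02 and 0.29 in RA. LV replicates 1 and 2 thus lay inside the LA range, and only RV lay wholly above both atria. The other subunit, *Kcnd3*, was not called (-0.005, adjusted p = 0.925). *Smyd1*, a muscle methyltransferase that acts with *Irx5* on *Kcnd2*, was higher by 0.45 ± 0.06 (adjusted p = 2.55e-05).

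The connexin genes went in opposite directions. *Gja1*, the connexin of working muscle that *Irx3* represses in mice, was higher in V by 0.46 ± 0.09 on the 18 arrays (limma adjusted p = 0.000455) and 0.05 ± 0.39 on 20. *Gja5*, the connexin of atria and fast conduction fibres that *Irx3* promotes there, was lower in V by 1.82 ± 0.12 on the 18 arrays (adjusted p = 1.12e-09). Of genes tied to *Irx4*, the nuclear receptor gene *Vdr* was lower in V by 0.86 ± 0.05 and its partner *Rxra* higher by 0.18 ± 0.03 (limma adjusted p = 1.08e-10 and 0.000313). *Bmp10*, a growth factor of the trabeculated heart, lay between -0.70 and -0.51 in all V, SA and LA arrays and gave 1.67, 1.94, 1.91 and 1.64 in RA, with RA the only region that stood above the rest. *Nppa*, an atrial peptide, was lower by 0.68 and *Myh7*, the slow myosin, higher by 0.29, while *Myh6* was not called at 0.29 ± 0.13 (adjusted p = 0.105). On the 18 arrays *Myh6* lay near the brightest probe of each array, such as 4.54 of 4.67 in LV replicate 2. In RA replicate 1 it gave 4.38 and *Nppa* 4.49, of 4.55. At the top of the scale a difference in *Myh6* could be hidden and that in *Nppa* reduced, which was not tested.

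**Figure D4:**
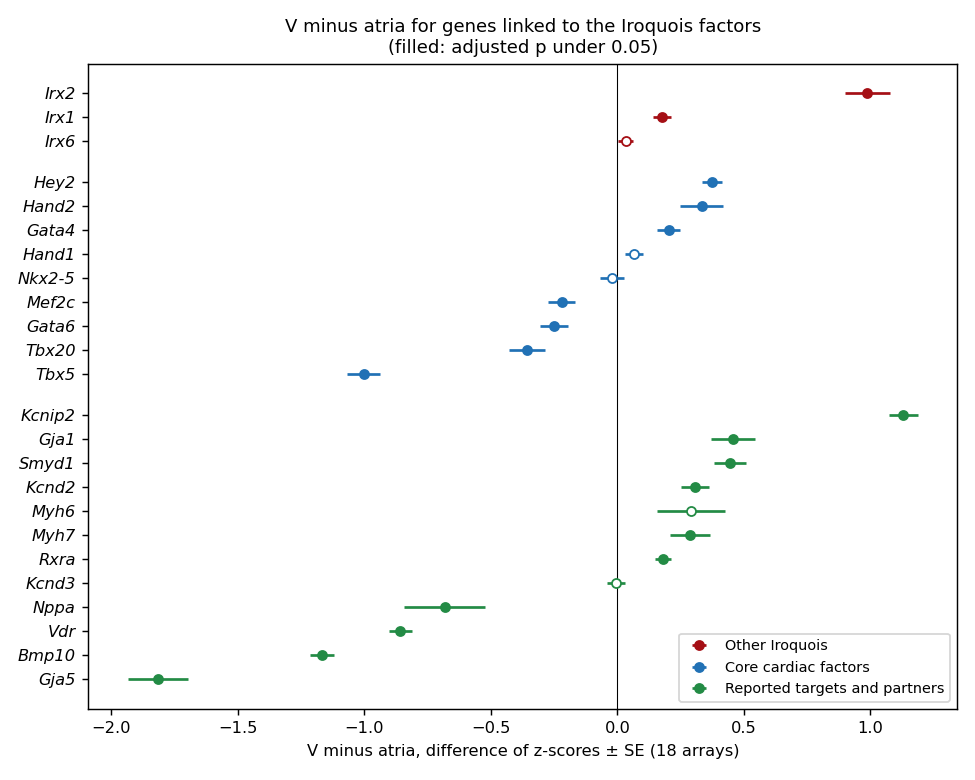
Difference V minus atria (x axis, z-score units, with SE; 18 arrays) for the remaining Iroquois genes, core cardiac factors and reported targets and partners of Iroquois factors; filled points have an adjusted p under 0.05. Of the genes shown, *Kcnip2* (1.13) and *Irx2* (0.99) lie farthest to the right and *Gja5* (-1.82) farthest to the left.

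Genes of ventricular conduction did not share the members' direction. Of 7 measured, 1 was higher in V on the 18 arrays, *Kcne1* by 0.80, a potassium channel subunit, and 5 were lower: *Gja5*, *Etv1* by 0.81, *Id2* by 0.77, *Scn10a* by 0.54 and *Cacna1g* by 0.13. *Hopx* was not called (0.03). The difference of *Kcne1* rested on the probe ILMN_2759207. Its other probes stayed low in every array, at -0.55 to -0.33 (ILMN_2607246), -0.97 to -0.55 (ILMN_2757772) and -0.58 to -0.40 (ILMN_2921901). The median of the list was -0.54 against 0.03 over all probes, and with 20 arrays 1 was higher and 3 lower, with the same shares of all probes called as before. The samples were not sorted for conduction fibres.

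Which genes followed each member over the 18 arrays was described by Pearson's correlation over 16592 genes, where the points share their regions and so mostly repeat the differences between them. *Irx3* and *Irx5* were close to each other, at 0.957. Nearest to *Irx3* were *Tmem63b* (0.965), *Irx5*, *Cacna2d1* (0.946), a calcium channel subunit, *Myl3* (0.945), a ventricular myosin light chain, and *Kcnip2* (0.944). Nearest to *Irx5* were *Irx3*, *Dffa* (0.942), an inhibitor of DNA fragmentation, *Cacna2d1* (0.935), *Ahrr* (0.934), a repressor of the aryl hydrocarbon receptor, and *Tmem63b* (0.932). *Irx4* had other neighbours, *Lbh* (0.991), *Scube2* (0.987), *Sobp* (0.986), the methyltransferase gene *Smyd2* (0.985) and *Magix* (0.983). Its correlation with *Irx3* was 0.903 and with *Irx5* 0.87, so that *Irx3* stood 253rd and *Irx5* 398th among its neighbours. These neighbours rest on the choice of arrays: over all 20, 5 of the 15 named pairs were still among the nearest 5 of their member. They also rest on the measure. By Spearman over the same 18 arrays, the named neighbours of *Irx4* gave 0.646 (*Scube2*, rank 1103) to 0.798 (*Magix*, rank 51). Those of *Irx3* and *Irx5* gave 0.810 to 0.929. *Myl3* fell to 0.42 with *Irx3* over 20 arrays and *Scube2* to 0.63 with *Irx4*, while *Kcnip2* with *Irx3* gave 0.95. *Tmem63b* shared the pattern of *Irx3* in part, at 2.25 ± 0.10 in LV (n = 2), 2.27 ± 0.13 in RV, 1.42 ± 0.14 in SA, 1.59 ± 0.04 in LA and 1.66 ± 0.04 in RA (SD, n = 4). Its mean was lowest in SA as in *Irx3*. Its ranges overlapped, at 1.23 to 1.55 in SA, 1.54 to 1.63 in LA and 1.60 to 1.70 in RA, unlike those of *Irx3*. *Lbh* illustrates the pattern of *Irx4*, at 3.44 ± 0.25 in LV (n = 2) and 3.23 ± 0.09 in RV, against 1.70 ± 0.15 in SA, 1.58 ± 0.09 in LA and 1.48 ± 0.07 in RA (SD, n = 4).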

How the data were processed

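The processing described here covers the values behind the Iroquois results. Per the labels and the study's methods, total RNA was labelled with biotin, hybridised to Illumina MouseRef-8 v2 arrays and read with BeadStudio and GenomeStudio 2011.1, and the study's own analysis took log2 signals with medians aligned by limma. The authors deposited 1 score per probe and array: 25697 probes on 20 arrays, read here as z-scores since each array had mean 0 and SD 1, with 2 decimals. How these scores were made from the signals, and on which scale, is not given in the sources used here, and scaling each array to one SD removes any difference in overall spread between arrays. A z-score has no true zero, so folds were not computed.

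Probes were named through the platform's annotation and gene identifiers: 23978 carried 1 gene, 23962 of these were matched to a mouse gene table (GRCm38.p6), and 1719 without 1 gene were left out. No filter was applied. Where a listed gene had several probes, the probe with the highest mean was used, and the *Irx2* probes, which disagree, were given separately. Other probes of a listed gene can differ from the one used, as for *Kcne1*. The fits, in limma 3.58.1 under R 4.3.3, took a mean per region over all 20 arrays, moderated by empirical Bayes, two-sided, with Benjamini-Hochberg adjustment over the 23978 probes within each comparison and a threshold of 0.05. V and atria were the means of their 2 regions. Exact permutation tests were run on the members alone. The fits were also run on simulated data with known differences and independent noise. Those data held no outlying array like LV replicate 4 and no shared animals, so they do not test the fits under either. The number of arrays limits the precision.

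Alternatives were leaving out each array, leaving out LV replicates 3 and 4, array quality weights, quantile normalisation, aligned medians, a filter on probes above 0 in at least 1 array, 1 probe per gene, robust moderation and the replicate number as a block. Tests of region pairs by permutation, fits without LV replicate 4 and RV replicate 2 and without LV replicates 1, 3 and 4 and RV replicates 2 and 3, and paired fits by title number were added after seeing the data. The members, gene lists and tests were chosen with earlier results of these data known, and nothing here is independent support for patterns already seen. Genes named are the members, genes of the fixed lists, and for each member the 5 genes of highest Pearson correlation over 18 arrays. Some listed genes are not reported here.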

Additional observations from a re-analysis of the deposited data

Results flagged for a closer look

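In 5 of 35 groups of 4 arrays, a sample stood apart from the other 3 by Dixon's test at the 95% level, which chance alone does in about 1 of 20 groups. *Irx3* in LV was flagged by LV replicate 4, at -0.11 against 2.08 to 2.50 in the other LV arrays. The same array gave 0.84 for the *Irx2* probe ILMN_3040515, against -0.71 to -0.64 in the other LV arrays. RV replicate 2 stood above the other RV arrays for *Irx4*, at 0.53 against 0.34 to 0.37, and for *Irx5*, at 1.06 against 0.53 to 0.61. LV replicate 2 stood above the other LV arrays for the *Irx2* probe ILMN_3115213, at 0.29 against -0.04 to 0.00. RV replicate 2 is the array whose title names another region. Its *Irx4* value of 0.53 lay outside the range of RA arrays, -0.81 to -0.75. Its mean over 5 atrial muscle genes was 1.95, between the 0.542 to 1.50 of the other RV arrays and the 3.98 to 4.40 of RA arrays. The causes were not tested.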

How the results depend on the processing

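V minus atria and V minus SA kept their direction and their adjusted p under 0.05 for *Irx3*, *Irx4* and *Irx5* in all 31 other settings over these regions, with limma adjusted p of at most 0.0485 (*Irx5*, V minus atria) and differences of 1.20 to 1.68, 1.02 to 1.32 and 0.60 to 0.90 against atria. *Irx4* also kept LV minus LA and RV minus RA in every setting. Other comparisons of single regions depended on LV replicate 4. Without LV replicates 3 and 4, *Irx3* was called for LA minus RA (-0.57), SA minus LA (-0.60) and SA minus RA (-1.18), and *Irx5* for LV minus LA (0.99), RV minus RA (0.73), SA minus LA (-0.63) and SA minus RA (-0.65). Array quality weights gave the same calls at -0.57, -0.61 and -1.18 for *Irx3* and 1.02, 0.74, -0.59 and -0.62 for *Irx5*. Without LV replicate 4 and RV replicate 2 they were -0.57, -0.60 and -1.18 for *Irx3* and 1.03, 0.61, -0.63 and -0.65 for *Irx5*. Without LV replicates 1, 3 and 4 and RV replicates 2 and 3, which leaves 1 LV array assumed to vary like the others, they were -0.57, -0.60 and -1.18 for *Irx3* and 1.17, 0.64, -0.63 and -0.65 for *Irx5*. In that setting LV minus RV was 0.29, 0.39 and 0.52 for *Irx3*, *Irx4* and *Irx5*, called for *Irx4* (limma adjusted p = 0.0319), and the left-right difference 0.86, 0.38 and 0.54, called for *Irx3* and *Irx4* (adjusted p = 0.00566 and 0.0222). *Irx3* lost its call when medians were aligned (LV minus LA 1.26, adjusted p = 0.0561; RV minus RA 1.39, adjusted p = 0.0594) and, for RV minus RA, under robust moderation (1.38, adjusted p = 0.0534).

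LV minus RV turned positive without LV replicates 3 and 4 for *Irx4* (0.21) and *Irx5* (0.24), with array weights (0.18 and 0.25), and without LV replicate 4 and RV replicate 2 (0.15 and 0.40, and 0.05 for *Irx3*). The left-right difference of the ventricle-atrium step turned positive for *Irx3*, *Irx4* and *Irx5* in the same 3 settings, at 0.52, 0.20 and 0.26, at 0.50, 0.16 and 0.28, and at 0.62, 0.14 and 0.42, and of these only the 0.62 was called (limma adjusted p = 0.0116).

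Leaving out 1 array at a time, *Irx3* ranged from 1.01 to 1.88 for LV minus LA (called only without LV replicate 4), 1.26 to 1.46 for RV minus RA (called only without LV replicate 2, 3 or 4), -0.59 to -0.54 for LA minus RA, -0.67 to -0.57 for SA minus LA, -1.25 to -1.14 for SA minus RA and -0.37 to 0.50 for the left-right difference. *Irx4* ranged from -0.32 to 0.11 for LV minus RV, 0.00 to 0.02 for LA minus RA, -0.01 to 0.04 for SA minus LA, 0.00 to 0.05 for SA minus RA and -0.33 to 0.10 for the left-right difference. *Irx5* ranged from 0.47 to 1.03 for LV minus LA, 0.61 to 0.79 for RV minus RA, -0.28 to 0.28 for LV minus RV, -0.08 to 0.02 for LA minus RA, -0.66 to -0.57 for SA minus LA, -0.67 to -0.60 for SA minus RA and -0.26 to 0.30 for the left-right difference. The calls gained among these, for *Irx3* and *Irx5*, came without LV replicate 4.

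Over all probes, V minus atria called 2311 on 20 arrays and 8076 on 18, and V minus SA 1453 and 6915. Replicate numbers were not used to pair the arrays: over all regions, deviations of arrays with the same number correlated at medians of -0.059 to 0.0131, and 0.00172 for different numbers. Between LV and RV, without LV replicate 4, the 3 pairs of equal title number gave 0.0343 to 0.177 against -0.145 to 0.0297 for others, and all 3 LV arrays correlated best with their own number. Between LA and RA the 4 pairs gave -0.259 to 0.317 against -0.325 to 0.24, and 3 of 4 LA arrays did so. This is a hint from the data, not the design. Paired fits to LV and RV alone gave -0.67, -0.16 and -0.10 with 4 pairs and -0.15, 0.10 and 0.25 with 3 for *Irx3*, *Irx4* and *Irx5*, none called, and one to LA and RA alone called *Irx3* (-0.57, limma adjusted p = 0.000102). With the replicate number as a block on 20 arrays no call of a member changed. That block joins arrays of all regions by the replicate number of the source labels. Titles number ventricular, atrial and SA arrays differently, so the block is not a pairing by title number. With the block and without LV replicates 3 and 4, *Irx3* gave -0.57, -0.60 and -1.18 for LA minus RA, SA minus LA and SA minus RA, and *Irx5* 0.96, 0.73, -0.63 and -0.65 for LV minus LA, RV minus RA, SA minus LA and SA minus RA, all called, LV minus RV was 0.20 for *Irx4* and 0.21 for *Irx5*, and the left-right difference was 0.46, 0.19 and 0.23 for *Irx3*, *Irx4* and *Irx5*.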
